A study of Mus musculus with 6 samples.

Results

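The genes described here encode 10 transcription factors of mesenchymal cells and fibroblasts: Twist1, Twist2, Tcf21, Snai1, Snai2, Zeb1, Zeb2, Runx1, Runx2 and Prrx1. They were chosen by symbol from the 22134 genes of the deposited expression table, and all 10 were present. The mice were wild type, and total RNA of their adipose tissue was sequenced in 6 libraries. In 3 of them the tissue was creeping fat, the mesenteric fat that wraps injured bowel, collected after the colon had been injured repeatedly by cautery. The other 3 came from mesenteric fat of healthy mice with no injury. The labels used here give no age or sex and do not state whether each library was a different animal, so a p-value here reflects just the variation among these samples, which may be technical. Values are FPKM, which are fragments scaled by the length of the gene and by the number of fragments in the library.

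These factors set mesenchymal identity during development and are switched on again in wound healing and fibrosis. Twist1, Twist2 and Tcf21 are basic helix-loop-helix proteins that pair with E proteins on E-box motifs, while the zinc-finger proteins Snai1, Snai2, Zeb1 and Zeb2 bind related E-boxes and repress epithelial genes such as Cdh1. Runx1 and Runx2 bind DNA with the partner Cbfb, Runx1 being best known from blood formation and Runx2 from bone formation. Prrx1 is a homeobox factor of limb and connective tissue mesenchyme. In adipose tissue such factors are found in progenitors and fibroblasts more than in adipocytes, and Zeb2 and Runx1 are also made by macrophages and other leukocytes.

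In creeping fat 5 members rose, namely Twist1, Prrx1, Snai1, Runx1 and Snai2, and no member fell in limma (0 at an unadjusted p under 0.05 and 0 by voom). Tcf21, Twist2, Runx2, Zeb1 and Zeb2 did not pass the test. The test was limma on log2(FPKM + 1) over the 12812 genes that reached 1 FPKM in 3 or more libraries, and a gene was called at a Benjamini-Hochberg adjusted p under 0.05. A fold change below is the mean log2(FPKM + 1) of creeping fat less that of the controls, which understates the change of genes with low values. Of all tested genes 9.35% were called higher and 6.81% lower, against 5 and 0 of the 10 members. The median log2 fold change was 0.82 over the 10 members and 0.02 over all tested genes. All 10 passed the filter on low values. Twist1 and Runx2 passed it only through creeping fat, since each was under 1 FPKM in 2 of the 3 control libraries. The FPKM of the groups did not overlap for 7 members, each higher in creeping fat, against 37.0% of all tested genes in either direction and 20.2% higher.

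The promoters of the called members are shown because these genes moved in the same direction. RefSeq promoter entries (build GRCm38.p6) were found for 8 of the 10 members, not for Snai2 or Zeb1. The 250 bases before each start site were searched on both strands for CACCTG, the E-box form bound by Snail and Zeb proteins, for the general E-box CANNTG, which also covers each CACCTG, for the Runx motif ACCACA and for the AP-1 motif TGANTCA. Over 32851 promoter windows of this length, 17.2% held CACCTG, 66.2% CANNTG, 14.0% ACCACA and 6.75% TGANTCA. Capitals below mark CACCTG on either strand, and bases that lie in an annotated exon of the gene were left off. The stretches were chr12:33957421-33957670 (plus strand) for Twist1, chr2:167537945-167538194 (plus strand) for Snai1, chr16:92826150-92826324 (minus strand) for the upstream promoter of Runx1 and chr1:163313711-163313900 (minus strand) for Prrx1.
Twist1: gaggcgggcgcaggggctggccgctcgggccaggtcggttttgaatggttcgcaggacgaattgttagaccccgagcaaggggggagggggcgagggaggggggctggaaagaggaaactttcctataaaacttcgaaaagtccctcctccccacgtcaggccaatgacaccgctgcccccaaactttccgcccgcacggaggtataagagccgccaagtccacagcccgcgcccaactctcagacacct
Snai1: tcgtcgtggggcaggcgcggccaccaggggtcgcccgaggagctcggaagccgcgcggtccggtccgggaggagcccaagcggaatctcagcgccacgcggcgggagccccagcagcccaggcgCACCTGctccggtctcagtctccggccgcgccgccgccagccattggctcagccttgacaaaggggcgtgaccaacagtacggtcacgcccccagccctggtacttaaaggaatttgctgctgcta
Runx1: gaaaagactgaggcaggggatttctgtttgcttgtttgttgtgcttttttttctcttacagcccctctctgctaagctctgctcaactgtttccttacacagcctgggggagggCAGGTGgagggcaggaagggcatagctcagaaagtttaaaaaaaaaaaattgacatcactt
Prrx1: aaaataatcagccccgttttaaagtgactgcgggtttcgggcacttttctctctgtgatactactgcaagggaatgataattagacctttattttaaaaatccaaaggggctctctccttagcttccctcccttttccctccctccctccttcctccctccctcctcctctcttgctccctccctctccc
Snai1 and the upstream promoter of Runx1 each held 1 CACCTG, starting at base -126 and base -136 from the start site, and that of Runx1 held 3 CANNTG in all. A second Runx1 promoter entry, chr16:92697330-92697579 (minus strand), is not printed and held none of the 4 motifs. The windows of Twist1 and Prrx1 also held none of the 4 motifs, which says only that these letters are not in them.

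Runx1 and Runx2 shared a stretch just after the start site of their upstream promoters, shown because it holds the motif that Runx proteins bind, ACCACA (capitals), 2 times in each gene. The stretch is 22 bases long. It was picked as the longest stretch shared by the upstream promoter entries of Runx1 and Runx2, so its absence from other entries is no test. Among all RefSeq promoter entries, searched here on both strands over their whole length from 250 bases before to 50 after the start site, it lay in those of Runx1 and Runx2 alone. It spans chr16:92826030-92826051 (minus strand) in Runx1, from base 24 after the start, and chr17:44814588-44814609 (minus strand) in Runx2, from base 19.
Runx1 and Runx2: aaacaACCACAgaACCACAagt

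The depth behind these values was recovered from the table itself, because FPKM of a gene are whole multiples of what 1 read is worth. The library totals were 32837045 to 36158204 reads in creeping fat and 31186018 to 43415696 reads in controls. Across genes, Pearson's r of log2 values ranged from 0.898 to 0.982 between libraries of 1 group and from 0.788 to 0.867 between libraries of different groups. Among marker lists, 9 of 9 seminal vesicle genes rose, and their summed FPKM were 5.004% to 8.97% of all FPKM in the injured group against 0.0161% or less in the controls. Each of these 9 was under 1 FPKM in control 1, so all passed the filter on low values only through creeping fat. Of 18 tested exocrine pancreas genes 14 fell, from 4.81% to 12.4% of all FPKM in controls to between 0.0047% and 1.54%. Several of these passed the filter only through controls, such as Cpa1, which was under 1 FPKM in creeping fat 1 and 3. All 10 adipocyte markers fell, from shares of 1.05% to 2.77% in controls to shares of 0.201% to 0.436% after injury, so the markers of the labelled tissue were present in every library. Of 10 fibroblast markers 8 rose (0.589% to 0.827% against 0.180% to 0.228%), and of 12 macrophage markers 9 rose (1.03% to 1.65% against 0.230% to 0.531%). None of 10 leukocyte markers was called (0 at an unadjusted p under 0.05), and their share was 0.130% in control 2 against 0.0301% and 0.0400% in control 1 and 3 and 0.0226% to 0.0652% in creeping fat. Of 10 endothelial markers 3 fell (0.0738% to 0.112% against 0.102% to 0.131%). Of 9 mesothelial markers 1 rose, Wt1, while the median log2 fold change was -0.32 (0.0173% to 0.0318% against 0.00629% to 0.0272%). Of 9 tested mural cell markers 1 fell, Cspg4, while the median was 0.51 (0.138% to 0.231% against 0.0745% to 0.182%). These last 2 counts are near the shares of all tested genes, 9.35% higher and 6.81% lower, and give no direction for either cell type. No marker was at 0 in all libraries. The part of these shares in the changes of the members was not tested, and in such bulk samples fewer cells of a type and less RNA per cell cannot be told apart.

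**Figure D1:**
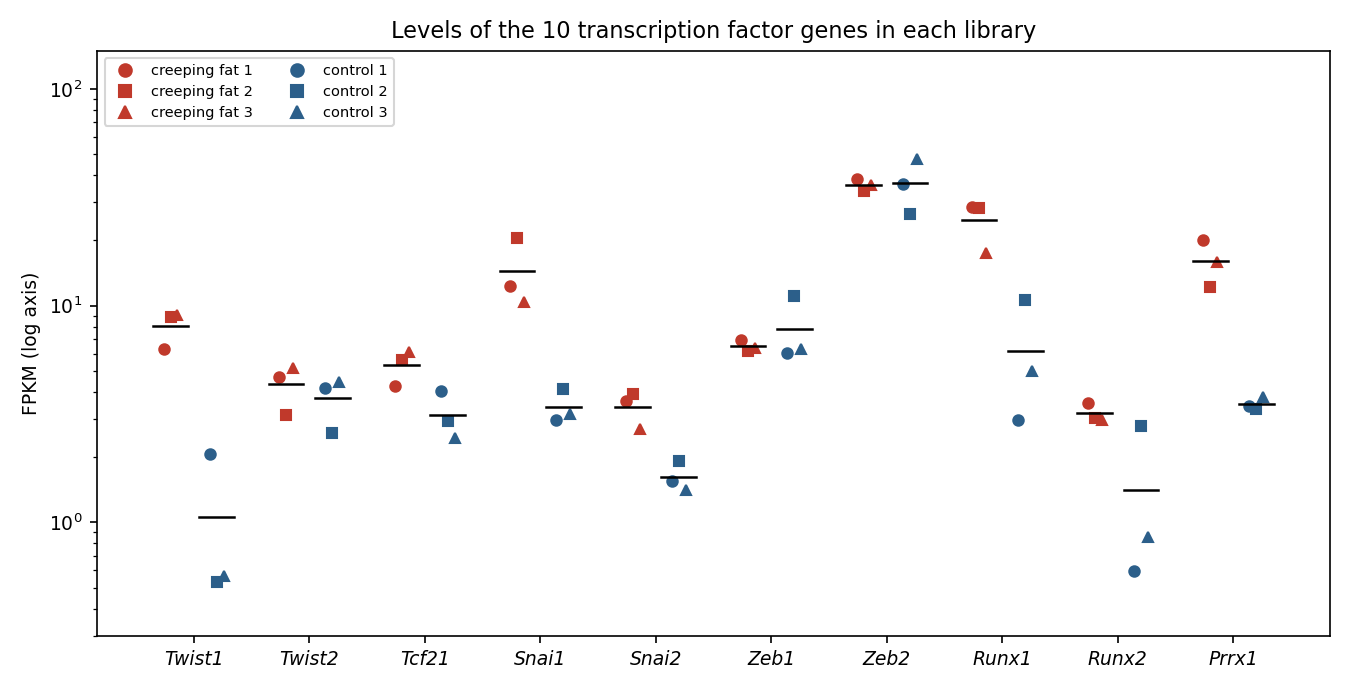
FPKM of each gene (log axis) in the 3 creeping fat libraries (red) and 3 control libraries (blue), with marker shape giving the library number and black lines the group means. Twist1, Snai1, Runx1 and Prrx1 show the widest gaps between the groups, and Zeb1, Zeb2 and Twist2 overlap.

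Among the helix-loop-helix factors Twist1, a regulator of mesoderm and of fibroblast activation, had the highest fold change of the 10 members in the fit to all libraries. Its level was 6.33, 8.87 and 9.02 FPKM in the creeping fat libraries 1 to 3 and 2.07, 0.531 and 0.565 FPKM in control 1 to 3. These values rested on 373 to 505 reads in creeping fat and on 131, 27 and 40 reads in control 1 to 3. All creeping fat libraries lay above all controls, and control 1 stood above the other controls. The log2 fold change was 2.21 ± 0.30 (SE, limma adjusted p = 0.00556), and the ratio of mean FPKM was 7.65. Twist1 was called with any 1 library left out, with log2 fold changes from 2.04 to 2.54. Runx1 was higher than Twist1 on this scale without control 2 (2.37 against 2.04), without creeping fat 3 (2.17 against 2.13) and without library 2 of both groups (2.26 against 1.97). The protein-coding gene Twist1 (ENSMUSG00000035799.6) lies on chromosome 12 from 33957671 to 33959829 (GRCm38), and no other annotated gene overlaps it.

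Twist2, the close relative of Twist1, did not follow it. Its FPKM were 4.70, 3.13 and 5.18 in creeping fat and 4.16, 2.59 and 4.43 in controls, so the groups overlapped. The fold change was 0.18 ± 0.23 on the log2 scale (limma adjusted p = 0.676), and it was -0.01 without control 2. Exons of Twist2 overlap those of an antisense gene, Gm29100, whose reads cannot be told apart here because the use of strand in counting is not given in the sources used here.

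Tcf21, a factor of visceral mesenchyme and of fibroblast precursors, stood at 4.26, 5.59 and 6.12 FPKM in creeping fat and at 4.02, 2.94 and 2.46 FPKM in controls. The groups did not overlap, but creeping fat 1 and control 1 differed by a factor of only 1.06. Its log2 fold change of 0.62 ± 0.20 did not pass (limma adjusted p = 0.0830). With libraries weighted by their quality it passed (0.77, limma adjusted p = 0.00785).

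Of the Snail factors, Snai1, which represses Cdh1 and is quickly induced by growth factor signals, rose more than Snai2. Snai1 stood at 12.3, 20.6 and 10.4 FPKM in creeping fat and at 2.95, 4.11 and 3.15 FPKM in controls, from 554 to 1165 and 186 to 222 reads. Creeping fat 2 was the highest library, and the lowest creeping fat library was 2.53 times the highest control. For Snai1 the log2 fold change was 1.76 ± 0.26 (limma adjusted p = 0.00678), and it was 1.49 without creeping fat 2. Snai1 was called with any 1 library left out. It lies on chromosome 2 from 167538195 to 167542814 (ENSMUSG00000042821.7), with no overlapping gene.

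Snai2, also called Slug, a factor of neural crest and connective tissue cells, stood at 3.65, 3.89 and 2.70 FPKM in creeping fat and at 1.55, 1.91 and 1.41 FPKM in controls, with no overlap. The values rested on 121 to 124 reads in controls and 180 to 276 in creeping fat. Snai2 differed by a log2 fold change of 0.75 ± 0.17 (limma adjusted p = 0.0287). Its call depended on the libraries used: the limma adjusted p was 0.121 without creeping fat 1, 0.112 without creeping fat 2, 0.0774 without control 1 and 0.113 without control 3, with fold changes from 0.67 to 0.87 over all 6 omissions. It was 0.0554 with no filter on low values. Snai2 (ENSMUSG00000022676.7) lies on chromosome 16 from 14705852 to 14709385. Snai3, the third member of the family, was under the filter, with 0.160 ± 0.114 FPKM (SD, n = 3) in creeping fat and 0.973 ± 1.03 in controls, where control 2 reached 2.16 FPKM.

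The Zeb factors, which repress epithelial genes and act in many stromal and blood cells, did not differ beyond their spread. Zeb2 stood at 38.3, 33.7 and 35.9 FPKM in creeping fat and at 36.5, 26.5 and 47.5 FPKM in controls, so the creeping fat libraries lay within the range of the controls. Its log2 fold change was 0.003 ± 0.22 (limma adjusted p = 0.995), and its sign turned with the scaling of the libraries and with single libraries. Zeb1 stood at 6.94, 6.16 and 6.39 FPKM in creeping fat and at 6.03, 11.0 and 6.30 FPKM in controls. Apart from control 2, all Zeb1 values lay between 6.03 and 6.94 FPKM. Zeb1 had a log2 fold change of -0.19 ± 0.23 (limma adjusted p = 0.653) and 0.06 without control 2, the library with the highest share of leukocyte markers. Exons of Zeb2 overlap those of 3 other annotated genes, among them the antisense gene Zeb2os, and exons of Zeb1 overlap the antisense gene Gm10125.

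The length by which Zeb1 was scaled stood apart. The deposited values of Zeb1 became whole reads at a length of 41309 bases, 4.02 times the 10266 bases of all its exons joined in the GENCODE M21 annotation. The other 9 members were scaled by 0.421 (Twist2) to 1.11 (Prrx1) times that length. Zeb2 was scaled by 9779 bases against 19942 in GENCODE. For given reads, the ratio of FPKM between the groups does not depend on the length. Fold changes with 1 added to each FPKM do depend on it where values are low. Comparisons of level between different genes depend on it too. In reads, Zeb1 had 8667 to 14225 per library and Zeb2 had 8086 to 20183. On the deposited scale Zeb2 was the most abundant member in each group. Per kilobase of GENCODE exons it was Zeb1, with 26.1 ± 1.62 FPKM after injury and 31.3 ± 11.3 in controls (SD, n = 3), against 17.7 ± 1.13 and 18.1 ± 5.16 for Zeb2. This second scale was added after the data were seen. It divides reads counted over the deposited lengths by the GENCODE lengths. The order of Zeb1 and Zeb2 on it therefore holds only if the counted reads fell in the GENCODE exons, which was not tested. Where the additional Zeb1 length came from is not given in the sources used here.

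**Figure D2:**
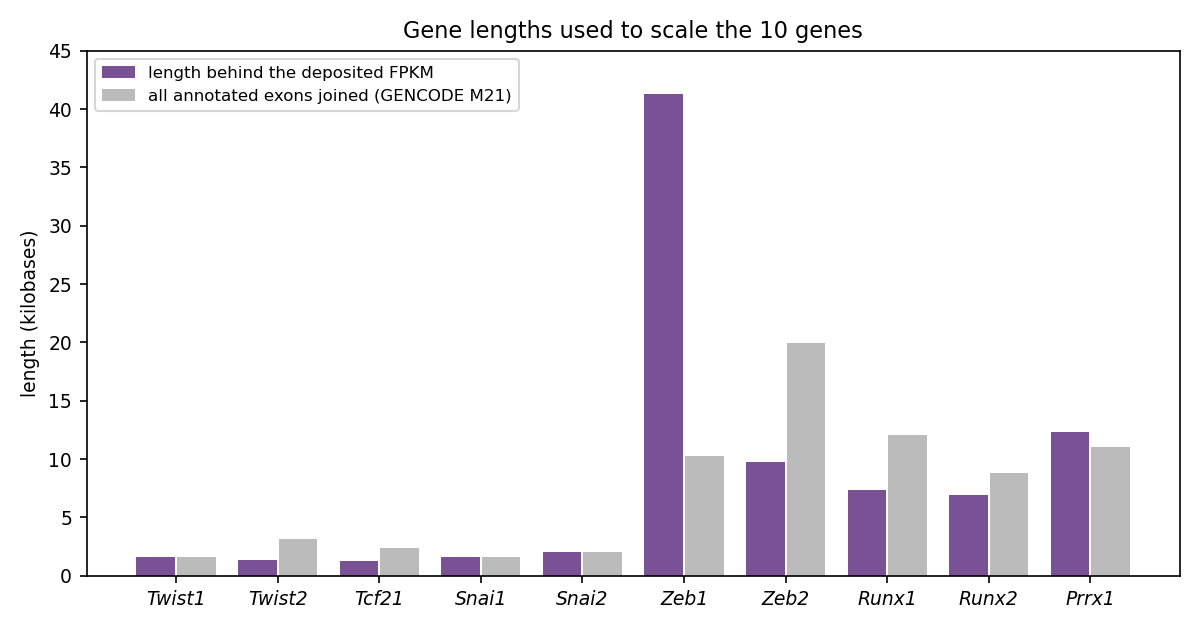
Gene length in kilobases that turns the deposited FPKM into whole reads (purple) and length of all exons joined in GENCODE M21 (grey) for each of the 10 genes. Zeb1 alone was scaled by far more than its annotated exons, 41309 against 10266 bases.

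Runx1, a factor of blood cells that is also found in activated fibroblasts and glandular epithelium, rose with a wide spread. It stood at 28.4, 28.4 and 17.5 FPKM in creeping fat and at 2.97, 10.7 and 4.998 FPKM in controls. The groups did not overlap, and control 2 was the highest control. Runx1 rose by a log2 fold change of 1.95 ± 0.40 (limma adjusted p = 0.0202). The call was lost without creeping fat 1 (1.84, limma adjusted p = 0.0840), without creeping fat 2 (1.84, limma adjusted p = 0.0710) and when control 3 was left out (1.89, limma adjusted p = 0.0829), and the fold change was 2.37 without control 2. Runx1 (ENSMUSG00000022952.17) lies on chromosome 16 from 92601466 to 92826149, and its exons overlap those of the antisense gene Gm26626.

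Runx2, the master factor of bone-forming cells, stood at 3.54, 3.03 and 2.97 FPKM in creeping fat and at 0.594, 2.79 and 0.854 FPKM in controls. Control 2 came close to the creeping fat libraries, and the other controls were far below. A log2 fold change of 0.90 ± 0.33 did not pass (limma adjusted p = 0.112), but it was 1.28 without control 2 (limma adjusted p = 0.00126). It also passed with libraries weighted by quality (1.17, limma adjusted p = 0.000793). Runx2 (ENSMUSG00000039153.16) lies on chromosome 17 from 44495987 to 44814797 and has the antisense gene Runx2os1 over its exons.

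The third Runx gene and the shared partner were also higher in control 2 than in the other controls. Runx3, a factor of lymphocytes, stood at 14.5 FPKM in control 2 against 1.55 and 2.45 FPKM in control 1 and 3 and 4.05 to 5.34 FPKM in creeping fat (log2 fold change 0.15 ± 0.63, limma adjusted p = 0.907). Cbfb ranged from 18.2 to 20.4 FPKM in creeping fat and was 19.3 in control 2 and 8.63 and 11.4 in control 1 and 3 (0.60 ± 0.27, adjusted p = 0.191). Ptprc, the common leukocyte antigen, stood at 63.6 FPKM in control 2 and at 15.9 and 21.2 FPKM in control 1 and 3. The part of leukocytes in the Runx values of control 2 was not tested.

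Prrx1, the homeobox factor of connective tissue mesenchyme, had the smallest p of the 10 members in the fit to all libraries. It stood at 20.0, 12.2 and 15.8 FPKM in creeping fat and at 3.43, 3.32 and 3.78 FPKM in controls, from 5224 to 8903 and 1274 to 2018 reads. The controls lay close together, and the lowest creeping fat library was 3.22 times the highest control. Prrx1 rose by a log2 fold change of 1.89 ± 0.19 (limma adjusted p = 0.00239), from 1.72 to 2.06 with 1 library left out, and it was called each time. Its relative Prrx2 rose as well, from 0.996, 0.915 and 1.22 FPKM in controls to 3.96, 4.82 and 5.32 FPKM in creeping fat (1.48 ± 0.16, limma adjusted p = 0.00276). Prrx2 was under 1 FPKM in control 1 and 2, so it passed the filter on low values only through creeping fat. Prrx1 (ENSMUSG00000026586.16) lies on chromosome 1 from 163245119 to 163313710, and no exon of another gene overlaps its exons.

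**Figure D3:**
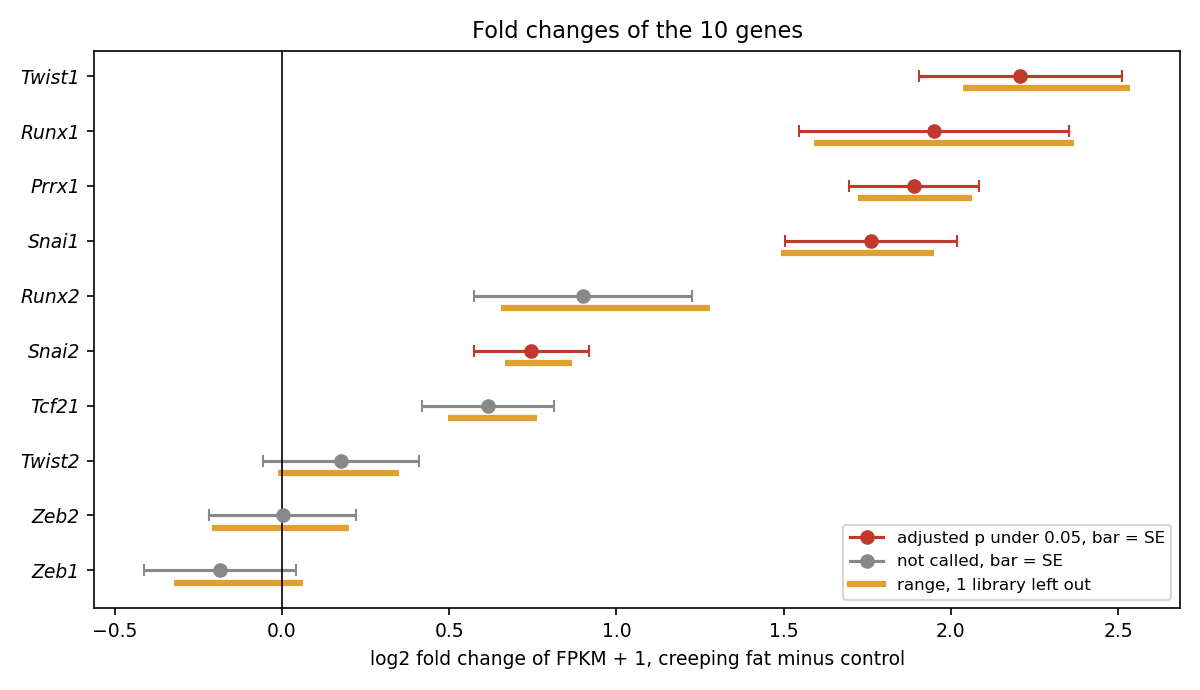
Log2 fold change of FPKM + 1 (creeping fat minus control) of each gene with its SE from limma, red where the adjusted p was under 0.05, and the range over the 6 fits with 1 library left out (orange). Twist1, Runx1, Prrx1 and Snai1 lie between 1.76 and 2.21, while Zeb1, Zeb2 and Twist2 lie near 0.

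The balance within pairs of related genes differed between the groups for Twist, Snai and Runx and overlapped for Zeb. Twist1 made up 57.4%, 73.9% and 63.5% of the summed FPKM of Twist1 and Twist2 in creeping fat and 33.2%, 17.0% and 11.3% in controls. Twist1 was thus the more abundant of the pair in each creeping fat library and the less abundant in each control, on the deposited scale. Per kilobase of GENCODE exons the ratio of Twist1 to Twist2 was 3.20 to 6.74 in creeping fat and 1.18, 0.487 and 0.303 in control 1 to 3. On that scale Twist1 was thus above Twist2 in control 1 too. That scale lowers Twist2, whose deposited length was 1335 bases against 3174 in GENCODE. Whether its counted reads covered the longer length was not tested. Snai1 made up 77.1% to 84.1% of its pair in creeping fat and 65.6% to 69.2% in controls. Runx1 made up 85.5% to 90.3% of its pair in creeping fat and 79.3% to 85.4% in controls, groups that nearly met. Zeb1 made up 15.1% to 15.4% of its pair in creeping fat and 14.2%, 29.4% and 11.7% in control 1 to 3. With 0.1 added to each FPKM, the log2 ratio was higher in creeping fat by 2.84 for Twist1 to Twist2, 0.98 for Snai1 to Snai2 and 0.74 for Runx1 to Runx2, with groups that did not overlap, and differed by -0.21 for Zeb1 to Zeb2, with overlap. These ratios are given as descriptions, without a test.

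**Figure D4:**
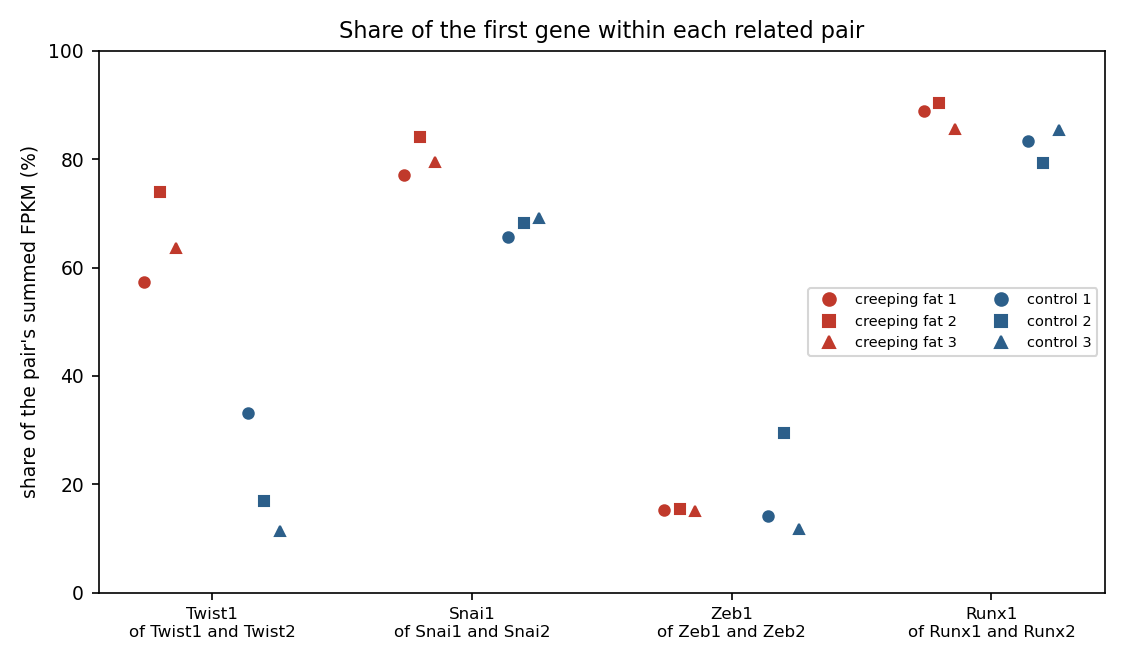
Share in percent of the summed FPKM of each related pair that came from the gene named first, in each creeping fat (red) and control (blue) library. Twist1 held 57.4% to 73.9% of its pair in creeping fat and 11.3% to 33.2% in controls, while the shares of Zeb1 overlapped.

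In creeping fat the order of mean FPKM on the deposited scale was Zeb2, Runx1, Prrx1, Snai1, Twist1, Zeb1, Tcf21, Twist2, Snai2 and Runx2. The ranges of neighbours in this order overlapped except between Zeb2 and Runx1, between Snai1 and Twist1 and between Zeb1 and Tcf21. In controls the order was Zeb2, Zeb1, Runx1, Twist2, Prrx1, Snai1, Tcf21, Snai2, Runx2 and Twist1, and only Zeb2 and Zeb1, and Tcf21 and Snai2, did not overlap with each other. Twist1 went from the last place in controls, at 1.05 ± 0.877 FPKM (SD, n = 3), to the fifth place in creeping fat, at 8.07 ± 1.51, on the deposited scale. Within creeping fat the coefficient of variation was 6.18% for Zeb1 and 6.39% for Zeb2 and reached 37.5% for Snai1. Within controls it was 6.82% for Prrx1 and reached 84.9% for Runx2 and 83.2% for Twist1.

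The members did not move alike beside the fibroblast markers of the same library. The mean log2(FPKM + 1) of the 10 fibroblast markers was 6.47, 6.25 and 6.31 in creeping fat and 4.75, 4.89 and 4.88 in controls, a difference of 1.51. Relative to this mean, Twist1 was higher in creeping fat by 0.70, Runx1 by 0.44, Prrx1 by 0.38 and Snai1 by 0.25, and only for Prrx1 did the groups not overlap. Relative to it, Zeb1 was lower by 1.69, Zeb2 by 1.51, Twist2 by 1.33, Tcf21 by 0.89, Snai2 by 0.76 and Runx2 by 0.61 on the log2 scale, with no overlap of the groups for any of these 6. With 0.1 in place of 1 added to each FPKM, a setting chosen after the data were seen, Runx2 was lower by only 0.17 and its groups overlapped. The same setting put Twist1 higher by 1.49, still with overlap, and Snai2 lower by 0.54. Relative to the markers, Snai1 stood at -0.06 without creeping fat 2. Each of these differences is the fold change of the member less the 1.51 of the markers. Any gene with a fold change under 1.51 therefore comes out lower, and the median over all tested genes was 0.02. The share of all tested genes whose groups do not overlap on this scale was not computed, so the lower values are not particular to these members. These differences are descriptions without a test.

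**Figure D5:**
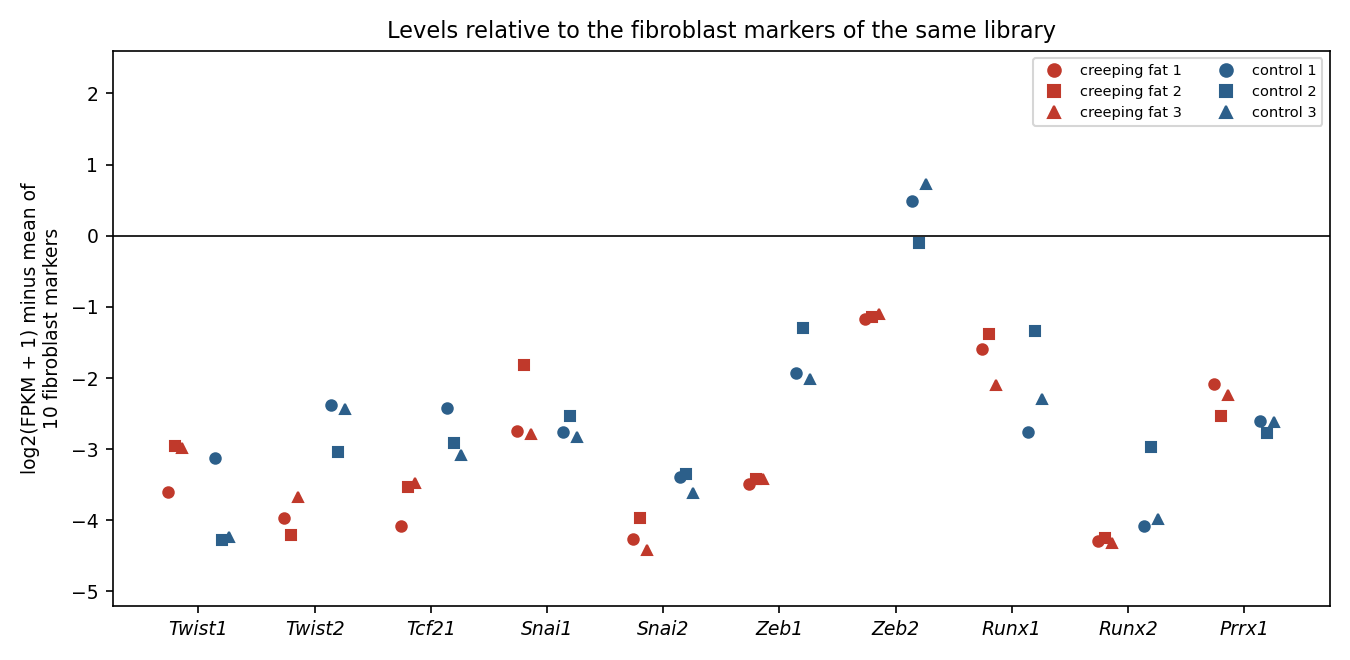
Difference between the log2(FPKM + 1) of each gene and the mean log2(FPKM + 1) of 10 fibroblast markers in the same library, creeping fat in red and controls in blue. Zeb1, Zeb2, Twist2, Tcf21 and Snai2 are lower in creeping fat relative to these markers and Prrx1 is higher, while the gap shown for Runx2 closes when 0.1 is added in place of 1.

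Of 14 tested partners, inhibitors and relatives of the members 1 rose, Prrx2, and none fell, a share of rises near the 9.35% of all tested genes. Their median log2 fold change was 0.21, and it was 0.58 without control 2 and 0.10 without control 1. The E proteins Tcf3, Tcf4 and Tcf12, with which Twist and Tcf21 pair, differed by 0.22 ± 0.38, 0.20 ± 0.13 and 0.14 ± 0.13 and were not called. The Id proteins block E proteins: Id1 averaged 17.4 ± 0.771 FPKM after injury and 28.5 ± 6.67 in controls (SD, n = 3) and did not pass (-0.66 ± 0.19, limma adjusted p = 0.0657), and neither did Id2, Id3 and Id4. Of 13 corepressors and chromatin enzymes used by these factors Kdm1a, a histone demethylase recruited by Snail proteins, rose by 0.46 ± 0.12 (limma adjusted p = 0.0454) and none fell, again a share near that of all tested genes. The median of this list was 0.10, and 0.25 without control 2.

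Genes that act upstream of these factors rose in part. Of 11 tested genes 5 rose and none fell (median 0.44), against 9.35% higher and 6.81% lower of all tested genes. The list holds mostly inducing signals and their transducers. It also holds Gsk3b and Btrc, which are not inducing signals and were not called. Tgfb2 and Tgfb3, ligands of the TGF-beta family, rose by 1.63 ± 0.14 and 1.94 ± 0.18 (limma adjusted p = 0.00141 and 0.00173), and Hif1a, the oxygen-regulated factor, by 1.53 ± 0.23 (limma adjusted p = 0.00709). Tgfb1, another ligand of the family, was not called (0.44 ± 0.32, limma adjusted p = 0.422). It stood at 60.4 FPKM in control 2, above each creeping fat library. The receptors Tgfbr1 and Tgfbr2 rose as well, while the transducers Smad2, Smad3 and Smad4 were not called. The median of this list was 0.24 without control 1 and 0.82 without control 2.

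Mesenchymal genes that accompany these factors rose in 16 of 19 tested cases, and none fell (median 2.28). The shares of all tested genes were 9.35% higher and 6.81% lower. Col1a1, the main chain of type I collagen, Mmp2, a gelatinase, and Col1a2 had the smallest p, with log2 fold changes of 5.14 ± 0.21, 3.999 ± 0.16 and 4.46 ± 0.21 (limma adjusted p = 9.72e-05, 9.72e-05 and 0.000157). Cdh2, the mesenchymal cadherin, rose by 0.83 ± 0.22 (limma adjusted p = 0.0454). It was under 1 FPKM in control 1 and 3, so it passed the filter on low values only through creeping fat. Vim, which encodes vimentin, did not pass (0.38 ± 0.29, limma adjusted p = 0.439).

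Epithelial genes known to be repressed by Snail, Zeb and Twist factors were higher rather than lower where they passed. Of 17 tested genes 5 rose and none fell (median 1.12), against 9.35% higher and 6.81% lower of all tested genes. Cldn1 and Mal2 went the other way and did not pass (-0.81 ± 0.27 and -0.46 ± 0.36, limma adjusted p = 0.0887 and 0.447). The tight junction gene Cldn4 rose by 1.80 ± 0.26 (limma adjusted p = 0.00665). Cldn4 was under 1 FPKM in each control and so was tested only through creeping fat. The splicing regulator gene Esrp1 rose by 1.22 ± 0.26 and the claudin gene Cldn3 by 1.68 ± 0.41 (limma adjusted p = 0.0236 and 0.0356). Esrp1 was under 1 FPKM in control 1 and 3 and likewise passed the filter only through creeping fat. Cdh1, the classic target, averaged 10.4 ± 5.51 FPKM after injury and 3.63 ± 2.96 in controls (SD, n = 3) and did not pass (1.34 ± 0.55, limma adjusted p = 0.153). Of 5 tested factors of epithelial identity Elf5, Ehf and Elf3 rose, by 2.55 ± 0.26, 1.78 ± 0.41 and 1.81 ± 0.49 (limma adjusted p = 0.00248, 0.0301 and 0.0489). All 3 passed the filter on low values with the help of their high creeping fat libraries, and Elf5 was under 1 FPKM in each control. Grhl1 fell by 1.03 ± 0.20 (limma adjusted p = 0.0174). The median of this list was 1.78, and 0.89 over its 9 genes with no filter on low values. Seminal vesicle markers, which come from glandular epithelium, moved with the group as given above, and the part of gland cells in these epithelial values was not tested.

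Bone and cartilage genes known as Runx2 targets were mostly low. Only 5 of 13 passed the filter, and 3 of them rose: Mmp9, a gelatinase also made by myeloid cells, by 3.33 ± 0.25, Spp1, which encodes osteopontin, by 5.68 ± 0.62, and the collagenase gene Mmp13 by 3.27 ± 0.53 (limma adjusted p = 0.000863, 0.00289 and 0.00945). The share called higher among all tested genes was 9.35%. The median was 3.27 over the 5 tested genes and 0.08 over all 13 with no filter on low values. Mmp13 was under 1 FPKM in each control and so was tested only through creeping fat. The bone genes Bglap, Ibsp, Sp7 and Dmp1 had means under 0.2 FPKM in each group, and Alpl did not pass (0.56 ± 0.22, limma adjusted p = 0.143).

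Of 24 tested further factors of mesenchymal and fibroblast lineages 8 rose and 2 fell. Of all tested genes 9.35% were called higher and 6.81% lower, so the share that fell is near that of all genes. The median was 0.35, and it was 0.56 without control 2 and 0.23 with no filter on low values. Tbx18 and Osr2, which are among the 8, were under 1 FPKM in each control and so were tested only through the group where they are high. Nr2f1, also among the 8, was under 1 FPKM in control 1 and 3 and likewise passed the filter only through creeping fat. Sox4, a factor of TGF-beta responses, rose from 4.51 ± 1.04 to 28.6 ± 3.58 FPKM (SD, n = 3), a log2 fold change of 2.44 ± 0.18 (limma adjusted p = 0.000909). Creb3l1, which promotes collagen secretion, rose by 2.02 ± 0.22, and Tbx18, a factor of mural and mesothelial precursors, by 1.65 ± 0.18 (limma adjusted p = 0.00277 for each). Meox2, a homeobox factor of mesoderm, fell by 0.88 ± 0.21 (adjusted p = 0.0318), and Ebf1, an adipogenic and B cell factor, fell by 0.79 ± 0.17 (adjusted p = 0.0216).

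The genes with a pattern over the 6 libraries most like that of each called member were sought among the 8422 tested genes that averaged 5 FPKM or more. Likeness was the mean absolute difference of log2(FPKM + 1) values centred on their mean over the libraries, so it rests largely on the difference between the groups. The closest genes to Twist1 were Csdc2 (0.12), Cyp2f2 (0.20) and Nbl1 (0.23). The closest to Prrx1 were Sertad4 (0.11), Crispld2 (0.11) and Fzd1 (0.12). Star (0.09), Adgra2 (0.11) and Cdr2l (0.13) were closest to Snai1, and Pdia3 (0.04), Uck2 (0.05) and Lrrc42 (0.06) to Snai2. For Runx1 the closest were the epithelial genes Cldn3 (0.16) and Epcam (0.18) and the macrophage receptor gene Cx3cr1 (0.19). Among the members themselves, Twist2 and Zeb2 were the most alike (0.16), followed by Tcf21 and Snai2 (0.25), and Twist1 and Zeb1 the least (1.197).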

How the data were processed

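Total RNA libraries, made with a stranded kit after removal of ribosomal RNA per the labels' protocols, were grouped by sample title into 3 of creeping fat and 3 controls. The authors deposited FPKM per gene symbol. Per the submitters' processing notes the genome was mm10, while aligner, counter, annotation and strand setting are not given in the sources used here. Members and gene lists were chosen with earlier results of these data known.

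The 12812 genes reaching 1 FPKM in 3 or more libraries were compared on log2(FPKM + 1) with limma 3.58.1 in R 4.3.3 (lmFit, eBayes with trend, group as the only factor, two-sided, Benjamini-Hochberg over all tested genes), after a test on simulated data. Named genes were all members, up to 3 called genes per list and direction with the smallest p, the relatives Snai3, Runx3, Prrx2 and Cbfb, and the 3 genes most alike to each called member. Id1 to Id4, Tcf3, Tcf4, Tcf12, Vim, Cdh1, Cdh2, Cldn1, Mal2, Tgfb1, Alpl and the genes listed by name only were added after their values were seen. Errors are limma's moderated SE or SD over 3 libraries.

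Whole reads were recovered within 0.0005 reads for all 18714 genes above 0. For genes with few reads some length nearly always works. A floor of 3 reads in 1000 bases equals 0.0691 to 0.0962 FPKM, for counting error only. Gene positions are from GENCODE M21 (GRCm38).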

Additional observations from a re-analysis of the deposited data

How the results depend on the processing

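Twist1, Snai1 and Prrx1 were called under every alternative that tested them, including those with 1 library left out. With 1 library left out, 576 to 2896 genes were called higher and 287 to 1857 lower, and 3 to 6 members were called higher (3 without creeping fat 1, creeping fat 2 or control 3). Leaving out library 2 of both groups, a later addition, gave 2713 higher and 1731 lower genes, and library weights gave 3128 and 2392. With the replicate number as a replicate block, 636 and 378 genes and 4 members were called, and Snai2 was lost (limma adjusted p = 0.0691). Nothing in the labels says that equal numbers pair the samples. Deviations of same-numbered libraries correlated at -0.18, -0.18 and -0.08, and those of other pairs at -0.14 to 0.24. With so few libraries these values cannot settle whether samples were paired. At a mean of at least 5 FPKM 3 members were called, since Twist1, Snai2 and others were not tested there.

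Small differences turned sign. With 1 library left out, Twist2 ranged from -0.010 (without control 2) to 0.351, Zeb1 from -0.324 to 0.064 (without control 2) and Zeb2 from -0.208 (without control 2; -0.042 without creeping fat 1) to 0.201. Zeb1 stood at 0.025 with library weights and 0.097 without library 2 of both groups. Zeb2 stood at -0.047 with median-of-ratios scaling, -0.301 with library weights and -0.164 without library 2 of both groups. The log2 ratio differences were 2.03 (Twist1 to Twist2) and 1.05 (Runx1 to Runx2) with 1 added to each FPKM. With 1 library left out they were 2.43 to 3.33 for Twist, 0.79 to 1.12 for Snai, 0.59 to 0.92 for Runx and -0.53 to 0.29 for Zeb, the last without control 2. The cause was not tested. Relative to the fibroblast markers, with 0.1 added to each FPKM, Twist1 stood at 1.49, Snai2 at -0.54, Runx2 at -0.17 and Prrx1 at 0.56. Snai1 ranged from -0.063 (without creeping fat 2) to 0.422 with 1 library left out. Voom on recovered reads, also added later, called the same 5 members, with Twist1 at 3.19. Depth limits Twist1 in controls most, with 27 reads in control 2.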
